A study of Solanum lycopersicum with 6 samples.

Results

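The 677 widest accessible regions called in tomato (Solanum lycopersicum) inflorescence meristem tissue, each spanning 5000 bp or more, are described here. They were chosen by width alone, as the end minus the start of each called peak on the 12 chromosomes of build SL4.0, and are called wide peaks below. They are 0.844% of the 80175 peaks on those chromosomes (95% exact binomial interval 0.782 to 0.910%), and the whole list held 80696 peaks. The tissue was inflorescences carrying the anantha-e1546 mutation in the M82 background, and all 6 samples shared this genotype, so that no wild type stands beside them. Plants were raised under long days, with light for 16 h and darkness for 8 h. Each of the 6 biological replicates started from 1 g of tissue, and 100000 nuclei entered a transposase reaction. The authors deposited a single list (1 for all replicates), which gives neither values per replicate nor the depth of a sample. The spread printed below is that among chromosomes (SD, n = 12), and the p-values measure that spread and not the spread among plants.

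ATAC-seq uses a transposase that inserts sequencing adapters where DNA is free of nucleosomes, and a stretch with many insertions is called as a peak. In plant genomes such accessible stretches are typically short and lie at promoters, just beyond the ends of genes and at distal regulatory elements. The F-box protein ANANTHA is needed for meristems to become flowers. Mutants keep forming meristems instead, which enriches the tissue for meristem cells. The name of the deposited list records a q value of 0.5 and a joining gap of 30 bp. The shortest gap between peaks was 31 bp, so a wide peak is a stretch whose inner gaps were all short enough to be bridged. How far the widths depend on either setting was not tested. The genes at the peaks and the sequence under them were not analysed here.

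The wide peaks covered 4.65 Mb, which is 5.83% of all bases in peaks and 0.602% of the span of the 12 chromosomes. The median wide peak spanned 6143 bp, between quartiles of 5479 and 7306 bp, against 700 bp for all peaks. Widths thinned out steadily above the limit. From 5000 bp up to 6000 bp there were 306 wide peaks, from 6000 bp 168, from 7000 bp 80, from 8000 bp 66, from 10000 bp 49, and 8 were 15000 bp or wider. The limit cuts through a continuous range, since the narrowest members had 5000, 5001, 5002 and 5006 bp and the widest peaks left out had 4997, 4996 and 4994 bp. The narrowest, on chromosome 7 at 9912628 to 9917627, had a −log10 q of 18.3, and the widest one left out, on chromosome 4 at 5561832 to 5566828, had 17.0.

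The widest peak of all 12 chromosomes lay on chromosome 8 at 9484325 to 9517651 and spanned 33327 bp. The second widest, of 19172 bp, lay close by at 9539442 to 9558613, and the fifth, of 17630 bp, lay between them at 9518137 to 9535766. Chromosome 3 held the next group, with 18602 bp at 54552410 to 54571011, 18159 bp at 59222408 to 59240566 and 15848 bp at 59206236 to 59222083. The 10 widest were completed by chromosome 7 at 60760457 to 60776933 (16477 bp), chromosome 1 at 4386131 to 4402108 (15978 bp) and 73472219 to 73486553 (14335 bp), and chromosome 9 at 5191977 to 5206571 (14595 bp). On the remaining chromosomes the widest peak had between 12306 bp on chromosome 5 and 13842 bp on chromosome 12.

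Every chromosome carried wide peaks, from 35 on chromosome 11 to 71 on each of chromosomes 3, 7 and 8. Per Mb the highest value was on chromosome 8, with 1.11 (95% exact Poisson interval 0.867 to 1.40), and the lowest on chromosome 11, with 0.644 (0.448 to 0.895), around a mean of 0.883 ± 0.174 (SD, n = 12). As a share of a chromosome's peaks the order was different. Chromosome 8 had 1.14% (exact binomial interval 0.889 to 1.43%), chromosome 12 had 1.13% (0.863 to 1.45%) and chromosome 7 had 1.12% (0.878 to 1.41%). Chromosomes 1 and 2, which hold the most and the third most peaks of the 12, had the lowest shares, with 0.643% (0.492 to 0.825%) and 0.641% (0.479 to 0.839%). The intervals of chromosomes 7, 8 and 12 do not overlap those of chromosomes 1 and 2. Such intervals hold for counting error alone and take peaks as independent, which neighbours need not be. On chromosome 8, 16 of the 71 wide peaks lay within 1 Mb, from 9000001 to 10000000, and its rank was not recomputed without them.

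Along the chromosomes most wide peaks lay toward the ends, as did most peaks of 500 to 1000 bp. Chromosomes were cut into 3 equal lengths, and the first and last of these form the outer parts. Of the 677 wide peaks 628 (92.8%) lay in the outer parts, as did 90.2% of the 29737 peaks of 500 to 1000 bp. Over chromosomes the outer share averaged 92.6% ± 8.38 for wide peaks and 90.4% ± 5.08 for peaks of 500 to 1000 bp (SD, n = 12). The difference of 2.13 percentage points was not detectable (two-sided exact sign-flip test with the chromosomes as units, p = 0.17, Benjamini-Hochberg adjusted p = 0.17 over 6 tests). It was positive on 10 of 12 chromosomes, the exceptions being chromosome 2 (69.2% of wide peaks against 75.9%) and chromosome 12 (83.6% against 92.2%). Without chromosome 12 the difference was 3.11 percentage points with an adjusted p of 0.028 in the same exact test, and with all chromosomes and a width limit of 10000 bp it was -1.12.

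**Figure D1:**
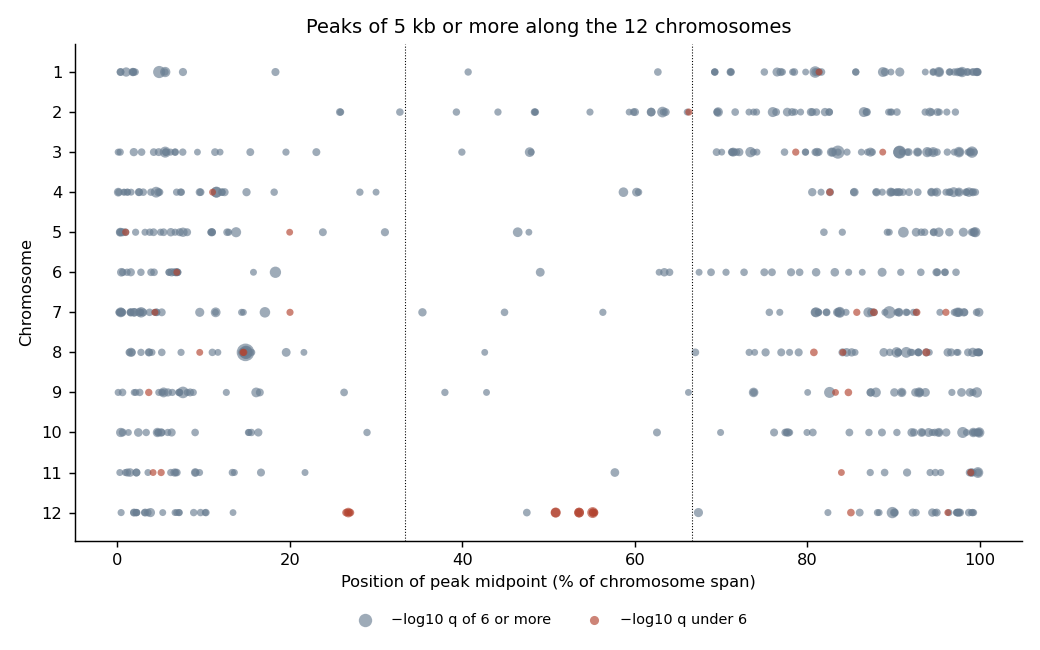
Midpoints of the 677 wide peaks (x axis, percent of the chromosome span) on each of the 12 chromosomes (y axis), with point area in proportion to width and dotted lines between the 3 equal parts. The middle parts hold 49 of the points, of which 16 are on chromosome 2 and 10 on chromosome 12, and of the 43 with a −log10 q under 6, 14 lie in the peak-poor interval of chromosome 12.

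The middle parts held 49 wide peaks, and these were unevenly shared among chromosomes. Chromosome 2 had 16 of them and chromosome 12 had 10, while the other 10 chromosomes had 1 to 4 each. Most of those of chromosome 2 lay toward the end of its middle part, among them its widest peak, of 12349 bp, at 33774985 to 33787333. When positions were pooled as percentages of the span, the stretch from 0 to 10% held 178 wide peaks (1.01% of the peaks there), that from 10 to 20% held 60 (1.36%) and that from 90 to 100% held 202 (0.839%). Of the 60, 16 lay in a single bin of chromosome 8, from 9000001 to 10000000, among 96 peaks. From 30 to 40% there were only 6, or 0.329% of the peaks there. The stretches from 60 to 70%, 70 to 80% and 80 to 90% held 28 (0.681%), 56 (0.703%) and 103 (0.703%).

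At the scale of 1 Mb, wide peaks occurred in 301 of 778 bins (38.7%). The bins with a wide peak had a median of 220 peaks, and the 477 bins without one had a median of 22. A single wide peak was present in 136 bins, 2 in 70 bins, 3 to 5 in 85 bins and 6 or more in 10 bins. Of the 182 bins with at least 200 peaks, 24 had no wide peak, whereas 48 of the 437 bins with fewer than 50 peaks did have one. The most were found on chromosome 8 from 9000001 to 10000000, with 16 wide peaks among 96 peaks (16.7%). The bins that came next, from 1000001 to 2000000 on chromosome 7 and from 63000001 to 64000000 on chromosome 8, each had 9, but among 325 and 339 peaks.

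From the edge of a wide peak, the nearest other wide peak lay at a median distance of 117 kb (quartiles 20.8 and 356 kb), and the greatest such distance was 20.0 Mb. A distance of 20 kb or less was found for 169 of the 677 wide peaks. Joining wide peaks over 20 kb or less gave 508 that stood alone, 66 groups of 2, 7 groups of 3, 1 of 4 and 1 of 12. In 27 cases the very next peak on the chromosome was also wide. In 12 of these the gap was 100 bp or less, and in 22 it was 1000 bp or less, with a median of 148 bp.

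The group of 12 was on chromosome 8, from 9351958 to 9558613, and was the largest group by number of wide peaks. It ran for 207 kb, of which the 12 wide peaks covered 67.6% and all 43 peaks together 80.0%. It lay at 14.8% of the chromosome span, within the run of 1 Mb bins that has few peaks, the peak-poor interval of the chromosome (4000001 to 50000000). The wide peaks had a median width of 8312 bp and a median −log10 q of 11.7. The strongest was the widest, at 18.3, and the weakest, at 9370828 to 9376529, had 3.55. The last 3 wide peaks took up 33327, 17630 and 19172 bp, with narrower peaks between them.

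Of the 8 other groups of 3 or more, 6 lay outside the peak-poor intervals, as did 546 of all wide peaks (80.6%). Inside these intervals lay 19.4% of wide peaks and 19.3% of all peaks. On chromosome 8 at 59429739 to 59448716, 3 wide peaks of 5815, 7078 and 5997 bp followed each other with gaps of 31 and 57 bp and no other peak between, and covered 99.5% of the stretch. Their −log10 q values were 11.5, 6.18 and 20.9. On chromosome 6 a group of 4 from 3228541 to 3261189 had values of 9.70, 21.9, 5.88 and 15.9, so that strong and weak wide peaks stood side by side. Chromosome 7 had groups of 3 at 1019243 to 1056607 and 1832039 to 1862696, chromosome 9 at 63643545 to 63684482 and chromosome 10 at 64717549 to 64756633. In these 4 groups every wide peak had a −log10 q of 10.9 or more.

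The remaining 2 groups of 3 lay in the interior of chromosome 12 and were unlike the others in strength. The group from 35682306 to 35717602 had 3 wide peaks of 5974, 10349 and 9997 bp, with −log10 q values of 4.97, 4.40 and 3.52. The group from 36748351 to 36783174 had 12863, 7474 and 6817 bp, with 4.50, 4.32 and 3.97. With the peaks between them, peaks covered 98.8% and 96.1% of these stretches. Those narrower peaks were weak as well, with −log10 q values of 1.65 to 3.86. The widths of these 6 wide peaks lay within the range of the chromosome 8 group, and their −log10 q values all lay below its median.

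**Figure D2:**
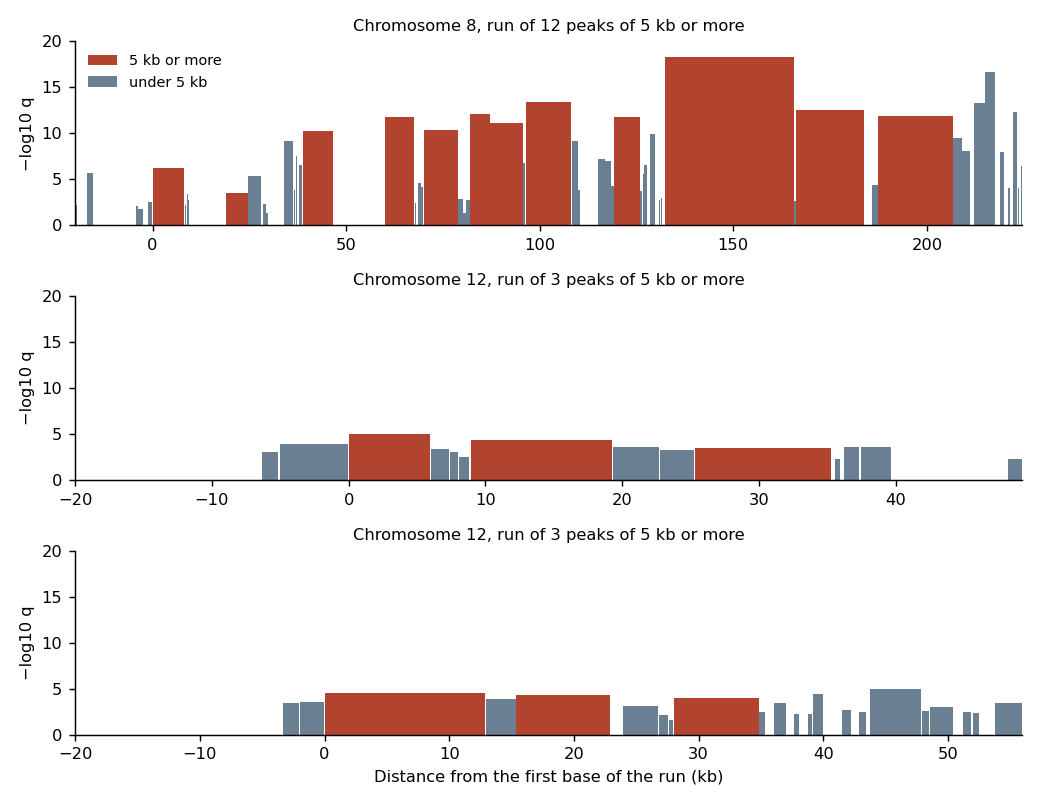
Peaks in the group of 12 wide peaks on chromosome 8 and the 2 groups of 3 in the interior of chromosome 12, by distance from the first base of the group (x axis, kb) and −log10 q (y axis), wide peaks in red and narrower ones in grey. The chromosome 8 group reaches 18.3, and the wide peaks of both chromosome 12 groups stay at or below 4.97.

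Strength, given as the −log10 of the authors' q value, and score come from the same signal that sets the width, so they are described without a test. The wide peaks had a median −log10 q of 14.2, with quartiles of 11.3 and 17.0 and a range of 3.11 to 24.7. The 21904 peaks of 500 to 1000 bp in the same 1 Mb bins had a median of 3.18, with quartiles of 2.04 and 5.38. Matched by bin, the chromosome medians were 14.3 ± 0.93 for wide peaks and 3.09 ± 0.15 for peaks of 500 to 1000 bp (SD, n = 12). All 677 wide peaks had a q at or below 0.01, as did 82.4% of all peaks. A −log10 q of 10 or more was carried by 560 of them (82.7%), against 11.8% of all peaks. A score at the cap of 1000 was given to 674 (99.6%), against 61.6% of all peaks. The 3 below the cap were on chromosome 7 at 13581271 to 13586749 (791, with the lowest −log10 q of all wide peaks, 3.11) and on chromosome 8 at 9319632 to 9325081 (926) and 9370828 to 9376529 (984).

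The median −log10 q went up with width over all peaks, from 3.14 at 500 to 1000 bp to 6.69 at 1000 to 2000 bp, 9.50 at 2000 to 3000 bp and 12.8 at 4000 to 5000 bp. Above the limit it was 13.2 from 5000 bp, 14.4 from 6000 bp, 15.6 from 7000 bp, 14.6 from 8000 bp, 16.4 from 10000 bp and 16.4 for the 8 peaks from 15000 bp, so the classes of wide peaks did not rise at every step. Within the wide peaks the relation was loose (Spearman's rho 0.22 across 677 peaks of 1 list, a description). Of the 100 strongest peaks of the 12 chromosomes 24 were wide, and of the 677 strongest 127 were.

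The strongest wide peak, with a −log10 q of 24.7, lay on chromosome 3 at 64706138 to 64720119 and spanned 13982 bp. Next came chromosome 4 at 6137756 to 6144496 (24.4, 6741 bp), chromosome 1 at 77753936 to 77759397 (24.3, 5462 bp), chromosome 6 at 35864401 to 35870932 (24.1, 6532 bp) and chromosome 7 at 54927122 to 54936081 (24.0, 8960 bp). The 10 strongest ran down to 22.5 on chromosome 10 at 60421197 to 60429458. Only the wide peaks on chromosome 3 at 64706138 and 3610029 (13130 bp) and on chromosome 9 at 11009359 (10298 bp) among these 10 were over 10 kb.

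**Figure D3:**
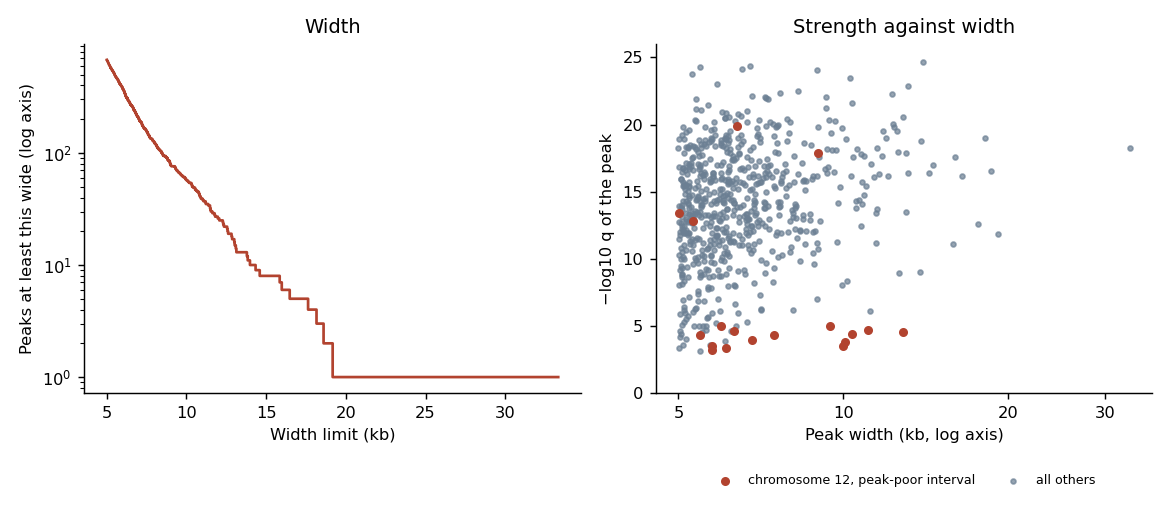
Left, number of wide peaks at least as wide as a given limit (log axis) against that limit (kb). Right, −log10 q of each of the 677 wide peaks against its width (kb, log axis), with the 18 of the peak-poor interval of chromosome 12 in red, of which 14 lie between 3.18 and 5.01.

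Weak wide peaks were few and their places uneven. A −log10 q under 6, a limit set after the values were seen, was found for 43 wide peaks (6.35%). Chromosome 12 carried 15 of them, chromosomes 7 and 8 carried 6 each and chromosome 10 none. In the peak-poor interval of chromosome 12 (7000001 to 57000000) 14 of 18 wide peaks were this weak, with a median of 4.33 and a highest value of 5.01. Outside that interval the wide peaks of the same chromosome had a median of 14.3, and 1 of 43 was under 6. In the peak-poor intervals of the other 11 chromosomes 6 of 113 wide peaks were under 6, with a median over all 113 of 15.1. Among the 57 wide peaks of 10 kb or more, 4 were under 6, and all 4 lay in the peak-poor interval of chromosome 12. Of the peaks of 500 to 1000 bp, 79.7% in the outer parts and 80.8% in the middle parts were under 6. Matched by bin, those of chromosome 12 had a median of 2.73, the lowest of the 12 chromosomes. Whether the weakness in its peak-poor interval is particular to wide peaks was not tested.

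These 14 weak wide peaks of chromosome 12 lay at few places. From 17670565 to 18034258 there were 4, of 5755 to 10064 bp, with −log10 q values of 3.18 to 3.80. From 33880775 to 36921843 there were 9, of 5483 to 12863 bp, with values of 3.52 to 5.01, and 8 of these 9 had another peak within 100 bp. Other peaks covered a median of 70.6% of the flanks of those 9. The last was at 56726294 to 56732619 (6326 bp, 4.61). The other 4 wide peaks of the interval, at 8935092, 31659188, 44931577 and 54947651, had 13.4, 19.9, 17.8 and 12.8, and other peaks covered a median of 17.9% of their flanks, so the stretch held both kinds. Mappability and copy number of these stretches were not tested.

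The width rule did not use the surroundings of wide peaks. Gaps and cover around a peak nevertheless come from the same signal and joining gap as its width. The tests below are therefore not independent of the choice of members. The surroundings were set beside those of peaks of 500 to 1000 bp in the same 1 Mb bins, each bin weighted by its number of wide peaks, and compared over the 12 chromosomes. Other peaks stood closer to wide peaks. The median gap from edge to edge to the nearest other peak was 85.2 ± 27.9 bp for wide peaks and 209 ± 39.3 bp for peaks of 500 to 1000 bp (SD, n = 12). It was shorter at wide peaks on 12 of 12 chromosomes, by 12 bp on chromosome 5 and by up to 210 bp on chromosome 1 (two-sided exact sign-flip test, p = 0.00049, the smallest this test can give, adjusted p = 0.00098). Another peak within 100 bp was present at 381 of 677 wide peaks, against 39.8% of all peaks. Over chromosomes this share was 56.4% ± 6.82 at wide peaks and 38.5% ± 2.46 at peaks of 500 to 1000 bp, again higher on 12 of 12 (exact sign-flip test, p = 0.00049, adjusted p = 0.00098). Without matching by bin, the share already rose below the limit, from 41.9% at 1000 to 2000 bp to 52.2% at 3000 to 4000 bp. It was 54.1% at 4000 to 5000 bp and 53.3% from 5000 up to 6000 bp, so close neighbours were not particular to wide peaks. The difference in the gap was -61.6 bp when peaks of 1000 to 2000 bp took the place of the narrower ones, and for the 57 peaks of 10 kb or more it was -75.1 bp and missed the threshold (exact sign-flip test, adjusted p = 0.33).

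**Figure D4:**
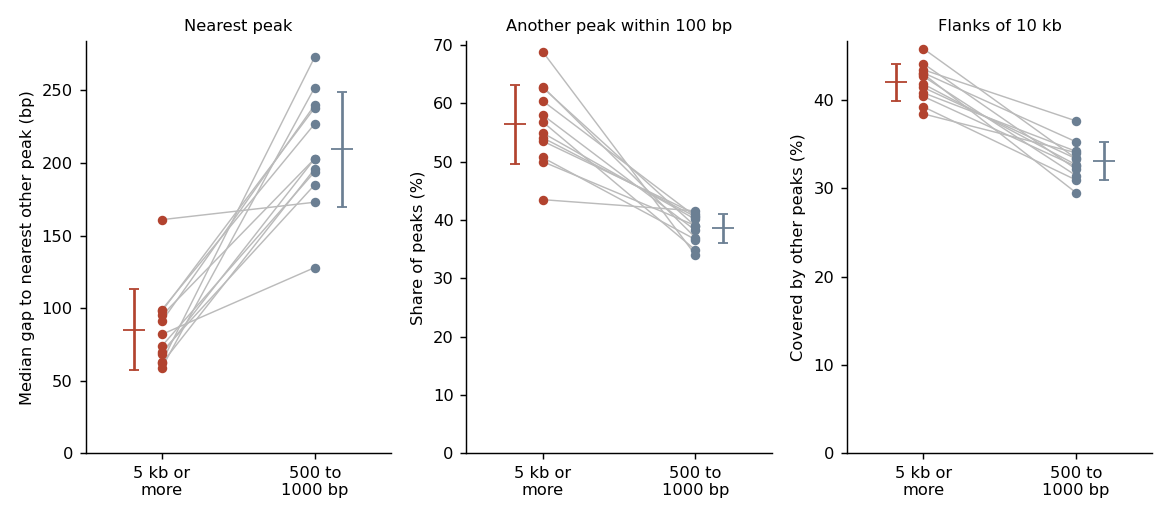
Median gap to the nearest other peak (bp), share of peaks with another peak within 100 bp (%) and share of the flanking 10 kb covered by other peaks (%), for wide peaks (left) and peaks of 500 to 1000 bp of the same 1 Mb bins (right) on each chromosome. Lines join the values of 1 chromosome and bars give mean ± SD (n = 12), with all 12 lines rising in the first panel and all 12 falling in the others.

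The close neighbours lay on either side. A gap of 100 bp or less preceded 219 wide peaks and followed 229, and 67 (9.90%) had one on both sides, against 5.21% of the peaks of 500 to 1000 bp in the same bins. The nearest peak had a median width of 934 bp (quartiles 543 and 1777 bp) at wide peaks and of 702 bp at peaks of 500 to 1000 bp. When peaks within 100 bp of each other were joined, the wide peaks fell into 658 regions with a median length of 7313 bp, of which the longest was 51442 bp. Of these regions 296 were a single peak. The same joining gave 923 further regions of 5000 bp or more that held no wide peak and were put together from a median of 3 narrower ones. In all, 1581 joined regions reached 5000 bp.

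Peaks were also denser in the flanks of wide peaks. Of the 10 kb on each side, other peaks covered 42.0% ± 2.10 at wide peaks and 33.1% ± 2.11 at peaks of 500 to 1000 bp (SD, n = 12), a difference of 8.93 percentage points that was positive on 12 of 12 chromosomes (two-sided exact sign-flip test, p = 0.00049, adjusted p = 0.00098). The number of other peaks in these flanks was 7.26 ± 0.44 at wide peaks and 6.71 ± 0.33 at peaks of 500 to 1000 bp, higher on 10 of 12 (exact sign-flip test, p = 0.0020, adjusted p = 0.0029). Without matching by bin, mean cover was 38.3% at peaks of 3000 to 4000 bp and 41.2% at 4000 to 5000 bp. It was also 41.2% from 5000 up to 6000 bp, so dense flanks were not particular to wide peaks. The difference in cover was 2.66 percentage points when matched within 100 kb bins (exact sign-flip test, adjusted p = 0.0073), a bin size added after the data were examined, and 3.09 for flanks of 50 kb. That in number was 0.33 against peaks of 1000 to 2000 bp, 0.84 with 100 kb bins and 1.05 for flanks of 50 kb, and for wide peaks of 10 kb or more it was 0.82 and missed the threshold (exact sign-flip test, adjusted p = 0.080).

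The difference in cover shrank with distance. In the first 1 kb from the edges, other peaks covered 46.8% ± 3.36 at wide peaks and 33.7% ± 1.95 at peaks of 500 to 1000 bp. Cover was highest in both from 1 to 2 kb, with 50.3% ± 4.17 and 37.8% ± 2.01. From 2 to 5 kb the values were 44.5% ± 3.10 and 34.0% ± 2.09, and from 5 to 10 kb they were 37.9% ± 2.19 and 31.5% ± 2.31. From 10 to 20 kb wide peaks had 32.6% ± 3.13 and the narrower peaks 28.5% ± 1.78, higher at wide peaks on 11 of 12 chromosomes. From 20 to 50 kb the values were 27.4% ± 2.33 and 26.7% ± 2.27, less than their spread apart and higher at wide peaks on 8 of 12 (SD, n = 12 throughout). These distance classes were added after the data were examined and were not tested one by one.

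**Figure D5:**
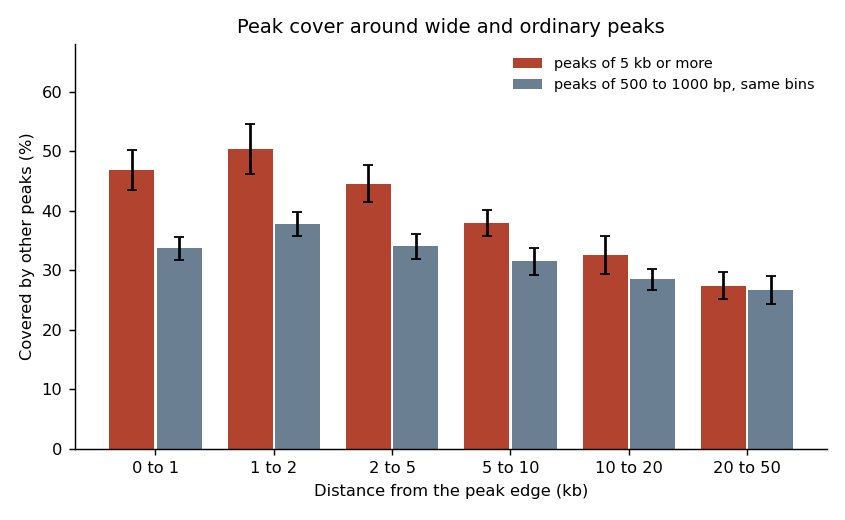
Share of sequence covered by other peaks (y axis, %) in classes of distance from the peak edge (x axis, kb), for wide peaks (left bars) and peaks of 500 to 1000 bp of the same 1 Mb bins (right bars), mean ± SD over 12 chromosomes. The gap between the bars is 46.8% against 33.7% next to the edge and closes to 27.4% against 26.7% at 20 to 50 kb.

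The nearest peak was itself somewhat stronger beside wide peaks. Its median −log10 q was 4.30 ± 1.12 at wide peaks and 3.53 ± 0.21 at peaks of 500 to 1000 bp (SD, n = 12), higher on 10 of 12 chromosomes (two-sided exact sign-flip test, p = 0.0054, adjusted p = 0.0064). Chromosome 11 stood out, with 7.34 at its 35 wide peaks against 3.62. The difference was 0.77 with chromosome 11, and without it 0.50 (exact sign-flip test, adjusted p = 0.013). With a width limit of 4000 bp the difference was 0.43 (exact sign-flip test, adjusted p = 0.012). The call was lost when matched within 100 kb bins, with a difference of 0.40 (exact sign-flip test, adjusted p = 0.33), when peaks within 100 bp were merged, with 0.28 (adjusted p = 0.32), and for wide peaks of 10 kb or more, with 0.65 (adjusted p = 0.42).

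A few wide peaks stood alone. No other peak lay within 10 kb of 9 of them, a set named after the values were seen, and 6 of the 9 were in peak-poor intervals. Those intervals made up 67.7% of the span and held 19.4% of all wide peaks, 20.0% of peaks of 500 to 1000 bp and 19.3% of all peaks. The most remote was on chromosome 5 at 54863693 to 54869343 (5651 bp, −log10 q 21.5), with 137 kb to the nearest peak. On chromosome 7 the wide peak at 11602709 to 11614671 (11963 bp, 19.0) was 98.9 kb from the nearest peak, and on chromosome 9 that at 11009359 to 11019656 (10298 bp, 23.4) was 37.0 kb away. The last is also among the 10 strongest wide peaks. The median −log10 q of the 9 was 18.5, and 6 had 15 or more. The other 3 were on chromosome 12 at 17670565 to 17676670 (3.35), on chromosome 3 at 31327048 to 31332164 (6.37) and on chromosome 2 at 13829199 to 13834694 (13.1). Standing apart was not more common at wide peaks. More than 2 kb lay between 33 of them (4.87%) and the nearest peak, against 10.8% of peaks of 500 to 1000 bp in the same bins. For a distance of 10 kb the share of narrower peaks was not computed.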

How the data were processed

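ATAC-seq was run on 6 samples of 1 group, assigned from their titles, with paired reads of 50 bases per the labels' protocols. Genrich 0.6, bedtools, SAMtools, Picard, BWA and Trimmomatic were used per the submitters' processing notes, which state no roles. The handling of duplicates, of organelle reads and of reads that map to several places is not given in the sources used here. The authors deposited 1 peak list, with a score capped at 1000 and, in each peak's name, other text holding the score again and the −log10 q. The build was read from its chromosome names. Positions are 1-based.

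Peaks of 5000 bp or more on the 12 chromosomes were compared with peaks of 500 to 1000 bp, by midpoint within 1 Mb bins, except for the outer share, which was not matched. Spans run from the first base to the end of the last peak. Peak-poor intervals are, on each chromosome, the consecutive 1 Mb bins whose counts fall furthest below the mean in sum, and thus depend on the peaks. Exact two-sided sign-flip tests over 12 chromosomes (4096 sign patterns) were adjusted by Benjamini-Hochberg over 6 tests with a threshold of 0.05. Of these, only the test of flank cover was run on simulated data. The members, the classes and the tests were chosen with earlier results of these data known. The peaks named were the 10 widest, the 10 strongest, the widest of each chromosome, groups of 3 or more within 20 kb and those next to the limit. Other named peaks were picked after their values were seen. The gene table at hand belongs to another assembly and no SL4.0 sequence was used here, so no genes or sequences are given. Values were computed with pandas 2.3.3, scipy 1.17.1 and numpy 2.4.6 under Python 3.11.15, and plotted with matplotlib 3.10.9.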

Additional observations from a re-analysis of the deposited data

Results flagged for a closer look

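Sequence not placed on a chromosome lay outside the comparisons and held 33 peaks of 5000 bp or more among its 521 peaks. This is a share of 6.33% (95% exact binomial interval 4.40 to 8.78%), against 0.844% (0.782 to 0.910%) on the 12 chromosomes, and the difference was not tested. These 33 had a median width of 8063 bp and a widest peak of 46143 bp, wider than any on the chromosomes. Their median −log10 q was 8.09 and their highest 18.3.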

How the results depend on the processing

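The number of wide peaks depends directly on its limit, with 1398 at 4000 bp, 57 at 10000 bp and 1581 after merging peaks within 100 bp. The difference in outer share passed at 2.79 percentage points with a limit of 4000 bp, at 3.47 with peaks merged and at 3.26 without members of a −log10 q under 6, an alternative added after the data were examined. It changed sign to -1.12 with a limit of 10000 bp. With that limit, which leaves 57 members, the gap (-75.1 bp), the number of peaks in the flanks (0.82) and the −log10 q of the nearest peak (0.65) lost their calls. The last was also lost with peaks merged (0.28) and with 100 kb bins (0.40). The causes of these changes were not tested. The cover of the flanks and the share with another peak within 100 bp kept their direction and call in every alternative run for them. Leaving out each chromosome in turn gave 1.64 to 3.11 percentage points for the outer share, -134 to -116 bp for the gap, 8.51 to 9.34 percentage points for the cover, 0.49 to 0.60 for the number of peaks, 16.3 to 19.3 percentage points for the share within 100 bp and 0.50 to 0.86 for the nearest −log10 q. No paired analysis was possible because the list does not separate the replicates, which could not be left out either. Depth is unknown, so sequence without a peak is sequence without a call.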
